A study of Mus musculus with 28 samples.

Results

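Zfp503, Foxb1, Prex1, Cdk14, Grb14, Marcks, Nipal2, Lingo3, Fam84a and Usp50 are 10 protein-coding genes whose RNA level differed between wild-type mIMCD-3 cells and lines grown from single cells of one of their clones. They were chosen by their measured levels in these libraries and looked up by Ensembl identifier in both deposited tables, which list 45706 identifiers each. The current symbol of Fam84a is Lratd1. Because the levels in WT5 and in the subclones chose these genes, those levels are described here and no p-value is given for the genes themselves, and where their calls are counted the count is a description.

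mIMCD-3 is an established mouse cell line of the inner medullary collecting duct, the last segment of the kidney tubule before urine leaves the organ. The study asked how much wild-type cells of this line differ among themselves, since edited clones are often compared with an unsorted parent. RNA was sequenced in 28 libraries, 4 of each of 7 lines. All lines are wild type and carry no edit. Polyclonal cells are the unsorted line. WT5 is a monoclonal line expanded from 1 sorted polyclonal cell. Subclones 1 to 5 each grew from 1 sorted WT5 cell over some weeks, so every subclone is 1 clone and its 4 libraries measure that clone. Cells of every line were untreated, and RNA was taken days after the layer had closed. Reads of polyclonal libraries were 50 bp long and from 1 end of a fragment, those of monoclonal libraries 150 bp and from both ends, so clonality and read type cannot be told apart between polyclonal cells and WT5. WT5 was deposited in one table and its subclones in another, and for a gene that lies on the same side of WT5 in all of them, clone and table cannot be told apart. The study calls the libraries of a line biological replicates in one place and technical replicates in another, so tests between lines measure only the spread between these libraries.

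Values are in TPM, the abundance of a transcript per length, scaled so that every library has the same total. Depth is unknown and counting error cannot be given. The lowest value above 0 was 0.01, so ratios to levels below 0.1 TPM are coarse. Between 16270 and 19272 identifiers had a TPM above 0 in a library. Of 11 collecting duct markers 10 had a mean of at least 1 TPM in polyclonal cells and 8 in WT5 and in every subclone, among them Krt8, Krt18, Cdh1, Epcam, Pax2, Pax8, Hoxb7 and Tfcp2l1. Aqp2, the water channel of the principal cell, was listed at 0 in all 28 libraries, and in WT5 Gata3 had a mean of 0.04 TPM and Avpr2 of 0.06 TPM. Endothelial markers summed to at most 0.29 TPM in any library, fibroblast markers to at most 2.06 TPM and leukocyte markers to at most 4.68 TPM. Proximal tubule markers summed to 1.45 to 10.3 TPM and thick ascending limb markers to 0.03 to 13.3 TPM, the latter mostly Umod and highest in subclone 5, and their part in the levels below was not tested. Replicate 2 of subclone 3 and replicate 1 of subclone 5 lay farthest from the other libraries of their lines, with root mean square log2 distances of 0.436 and 0.426 where the other 26 lay between 0.274 and 0.374.

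The 10 genes do different work in the cell. Zfp503 and Foxb1 encode DNA-binding regulators of transcription, Prex1, Cdk14, Grb14 and Marcks belong to signalling downstream of membrane receptors, and Nipal2 and Lingo3 encode membrane proteins. Cells of 1 line share a genome apart from changes since the last common cell, and an expression state can be handed on through divisions, so a level set in the founder cell of a clone may still be seen in its descendants.

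The 10 genes lie on 7 chromosomes, and all 10 are on the minus strand, as were 49.4% of the 14031 genes tested among the subclones. The bases just before a start site are where CG dinucleotides, the sites of DNA methylation in mammals, often cluster. RefSeq promoter windows were found for 7 of the 10 genes, and 6 of those 7 held at least 10 CG dinucleotides in the 250 bases before the start site. This was so for 38.2% of 27025 mouse promoters, whose median was 6. Those promoters were not limited to protein-coding genes or to genes expressed in these cells, so nothing is read from this difference. The count of CG was 13 for Zfp503, 16 for Prex1, 19 for Fam84a, 24 for Grb14, 27 for Lingo3 and 43 for Cdk14. Usp50 held only 2. The RefSeq start sites used for Cdk14 and Grb14 lie 40061 and 2221 bases inside the gene coordinates given below. The windows of Fam84a, Grb14 and Usp50 overlap an annotated exon of the same gene. Zfp503 and Lingo3 had the highest Pearson's r of any pair over the 24 WT5 and subclone libraries, and Prex1 was high in another subclone. The windows of these genes are shown for that reason. They are given 5′ to 3′ on the minus strand of GRCm38, from RefSeq, at chr14:21989602-21989851, chr10:80844040-80844289 and chr2:166713833-166714082, and capitals mark CG.
Zfp503: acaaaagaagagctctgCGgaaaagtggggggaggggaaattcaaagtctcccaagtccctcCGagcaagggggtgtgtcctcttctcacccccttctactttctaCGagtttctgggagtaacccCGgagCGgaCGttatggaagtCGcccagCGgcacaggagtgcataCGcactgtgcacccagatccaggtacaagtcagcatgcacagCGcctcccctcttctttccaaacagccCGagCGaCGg
Lingo3: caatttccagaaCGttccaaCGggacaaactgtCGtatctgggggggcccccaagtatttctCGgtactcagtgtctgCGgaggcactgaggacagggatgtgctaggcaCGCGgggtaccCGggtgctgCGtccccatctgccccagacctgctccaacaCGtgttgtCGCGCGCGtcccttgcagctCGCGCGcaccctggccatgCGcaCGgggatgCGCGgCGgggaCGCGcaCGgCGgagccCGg
Prex1: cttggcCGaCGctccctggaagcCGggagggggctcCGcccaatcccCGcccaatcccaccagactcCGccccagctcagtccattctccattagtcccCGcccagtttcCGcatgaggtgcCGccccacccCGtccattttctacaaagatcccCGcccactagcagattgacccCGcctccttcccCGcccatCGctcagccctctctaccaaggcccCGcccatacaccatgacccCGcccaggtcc
No annotated exon overlaps these 3 windows, and methylation was not measured.

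Among the 5 subclones, 9 of the 10 genes spread beyond the threshold used for a call, and Usp50 did not. The clone in which a gene was high differed from gene to gene. Subclone 4 held the highest mean of Zfp503, Fam84a, Cdk14, Nipal2 and Lingo3, subclone 3 that of Grb14, Marcks and Usp50, subclone 2 that of Prex1 and subclone 5 that of Foxb1. A call needed an adjusted p below 0.01 and a difference above 1 in z-score, the number of SDs of log2(TPM) across the genes of a library. A z-score of 1 was worth 8.23-fold among the subclones. Of all genes tested there by limma, 0.613% were called. The median range between the highest and the lowest subclone mean was 1.4 in the 10 genes and 0.095 in all genes. This contrast is the one the genes were picked from, so nothing is read from the count.

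**Figure D1:**
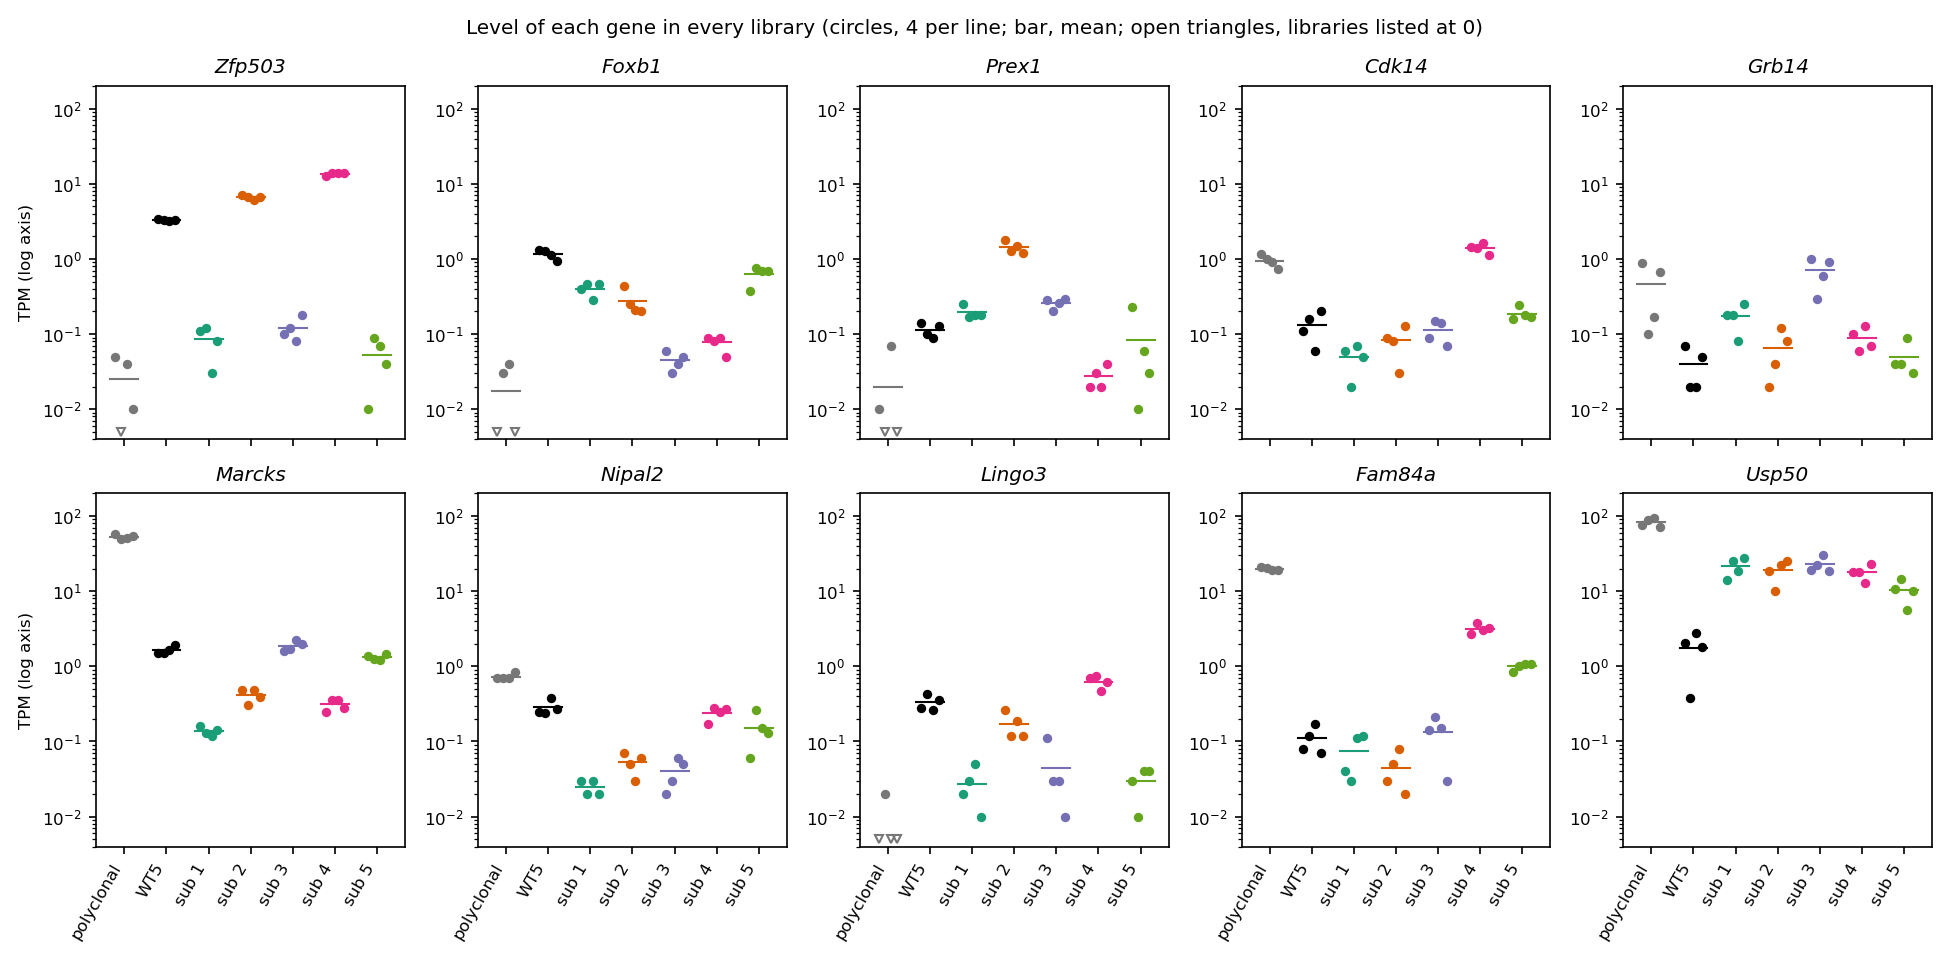
TPM of each gene (log axis) in the 4 libraries of polyclonal cells, WT5 and subclones 1 to 5 (sub 1 to sub 5). Circles are libraries, bars are means of 4 and open triangles are libraries listed at 0. Zfp503 sits between 6.01 and 14.02 TPM in subclones 2 and 4 and between 0.01 and 0.18 TPM in subclones 1, 3 and 5.

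Zfp503 (ENSMUSG00000039081, chromosome 14 at 21983959 to 21989601) encodes a zinc finger repressor that works with Groucho co-repressors and is known from the developing striatum and eye. In polyclonal cells it was listed at 0.05, 0, 0.04 and 0.01 TPM, and in WT5 at 3.41, 3.28, 3.18 and 3.29 TPM. Subclone 4 held 12.82, 14.02, 13.82 and 13.77 TPM and subclone 2 held 7.18, 6.58, 6.01 and 6.62 TPM. Subclone 1 held 0.11, 0.12, 0.03 and 0.08 TPM, subclone 3 held 0.1, 0.12, 0.08 and 0.18 TPM, and subclone 5 held 0.01, 0.09, 0.07 and 0.04 TPM. The subclones thus lay on either side of their parent, with every library of subclones 2 and 4 above all of WT5 and every library of the other subclones below. The mean of subclone 4, 13.6 ± 0.536 TPM (SD, n = 4), was 4.14-fold that of WT5 and 259-fold that of subclone 5. WT5 was 62.7-fold above subclone 5. In the order of levels subclone 4 stood apart from subclone 2 by 2.06-fold, subclone 2 from WT5 by 2.01-fold and WT5 from subclone 3 by 27.4-fold, while subclones 3, 1 and 5 and polyclonal cells overlapped in turn. Its range among the subclones, 2.74 in z-score, was the highest of the 14031 genes above 0 in all 20 subclone libraries. Genes listed at 0 in any of these libraries were not ranked. The rank rests on the levels that chose the gene, so it is a description.

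Foxb1 (ENSMUSG00000059246, chromosome 9 at 69757710 to 69760940) encodes a forkhead factor known from the developing hypothalamus. Polyclonal cells held 0, 0.03, 0.04 and 0 TPM, and WT5 held 1.32, 1.27, 1.13 and 0.94 TPM. The subclone nearest to WT5 was subclone 5 with 0.37, 0.75, 0.69 and 0.69 TPM, ahead of subclone 1 with 0.4, 0.46, 0.28 and 0.47 TPM and subclone 2 with 0.43, 0.25, 0.21 and 0.2 TPM. Subclone 4 held 0.09, 0.08, 0.09 and 0.05 TPM, and subclone 3 held 0.06, 0.03, 0.04 and 0.05 TPM. Every subclone lay below every WT5 library, so the comparison with WT5 carries the change of table, but the subclones also differed from each other within their own table. Subclones 5, 1 and 2 overlapped in turn and stood apart from subclones 4 and 3, which overlapped. Subclone 5 was 13.9-fold above subclone 3 on means, and WT5 25.9-fold. Without replicate 1 of subclone 5, the library far from its line, the range of mean log2(TPM + 0.1) among the subclones was 2.49 instead of 2.29. Of the 50-base stretches of its longest transcript 12.6% also occur in other genes, mostly in the antisense transcript B230323A14Rik. That transcript was listed at no more than 0.11 TPM in WT5 and at 0 in all libraries of subclones 3 and 4.

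Of the signalling genes, Prex1 (ENSMUSG00000039621, chromosome 2 at 166566342 to 166713832) encodes an exchange factor that activates the GTPase Rac downstream of phosphoinositide 3-kinase and G proteins. It was listed at 0.01, 0, 0.07 and 0 TPM in polyclonal cells and at 0.14, 0.1, 0.09 and 0.13 TPM in WT5. Subclone 2 alone passed 1 TPM, with 1.81, 1.29, 1.48 and 1.2 TPM. Subclone 3 held 0.28, 0.2, 0.26 and 0.29 TPM, subclone 1 held 0.25, 0.17, 0.18 and 0.18 TPM, subclone 5 held 0.23, 0.01, 0.06 and 0.03 TPM, and subclone 4 held 0.02, 0.03, 0.02 and 0.04 TPM. Subclones 1, 2 and 3 lay above WT5 in every library, subclone 4 below, and subclone 5 overlapped it through replicate 1, one of the libraries far from their lines. Subclone 2 was 12.6-fold above WT5 and 52.5-fold above subclone 4 on means, and 5.61-fold above the next line, subclone 3.

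Cdk14 (ENSMUSG00000028926, chromosome 5 at 4803391 to 5420312) encodes a kinase that pairs with cyclin Y at the membrane and phosphorylates the Wnt co-receptor Lrp6. Polyclonal cells held 1.18, 0.99, 0.9 and 0.74 TPM and WT5 held 0.11, 0.16, 0.06 and 0.2 TPM. Subclone 4 held 1.42, 1.41, 1.63 and 1.13 TPM. The other subclones stayed low, with 0.16, 0.24, 0.18 and 0.17 TPM in subclone 5, 0.09, 0.15, 0.14 and 0.07 TPM in subclone 3, 0.09, 0.08, 0.03 and 0.13 TPM in subclone 2, and 0.06, 0.02, 0.07 and 0.05 TPM in subclone 1. Subclone 4 alone stood apart from WT5, by 10.5-fold, and its libraries overlapped those of polyclonal cells. The other subclones overlapped WT5 and their neighbours in the order of levels. The ratio of subclone 4 to subclone 1 was 27.9.

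Grb14 (ENSMUSG00000026888, chromosome 2 at 64912476 to 65024987) encodes an adaptor that binds the insulin receptor and inhibits its kinase. Its libraries scattered more than those of the other signalling genes. In polyclonal cells it was at 0.89, 0.1, 0.17 and 0.67 TPM and in WT5 at 0.07, 0.02, 0.02 and 0.05 TPM. Subclone 3 held 1, 0.29, 0.6 and 0.92 TPM, and subclone 1 held 0.18, 0.18, 0.08 and 0.25 TPM. Subclone 4 held 0.1, 0.06, 0.13 and 0.07 TPM, subclone 2 held 0.02, 0.04, 0.12 and 0.08 TPM, and subclone 5 held 0.04, 0.04, 0.09 and 0.03 TPM. Only subclone 3 stood apart from all the other subclones, 17.6-fold above WT5 and 14.1-fold above subclone 5 on means, although it overlapped polyclonal cells. The lowest value of subclone 3 was replicate 2, the library far from its line, and without it the range of mean log2(TPM + 0.1) among the subclones was 2.64 instead of 2.33.

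Marcks (ENSMUSG00000069662, chromosome 10 at 37133375 to 37138920) encodes a protein kinase C substrate that ties actin to the plasma membrane. It was abundant in polyclonal cells, at 57.23, 49.76, 51.67 and 54.43 TPM, and low in WT5, at 1.5, 1.49, 1.64 and 1.93 TPM. Subclone 3 held 1.6, 1.71, 2.23 and 1.96 TPM and subclone 5 held 1.36, 1.27, 1.21 and 1.45 TPM. Subclone 2 held 0.48, 0.31, 0.48 and 0.39 TPM, subclone 4 held 0.25, 0.36, 0.36 and 0.28 TPM, and subclone 1 held 0.16, 0.13, 0.12 and 0.14 TPM. Subclone 3 overlapped WT5, and the other subclones lay below it in every library, subclone 5 by only 1.24-fold on means. Subclone 5 stood apart from subclone 2, subclones 2 and 4 overlapped, and subclone 1 stood apart below. WT5 was 11.9-fold above subclone 1 and 32.5-fold below polyclonal cells, so a gene already low in the parent clone was lower still in subclones 1, 2 and 4.

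Among the membrane proteins, Nipal2 (ENSMUSG00000038879, chromosome 15 at 34572799 to 34679212) belongs to the NIPA family, whose best known members carry magnesium. It was at 0.69, 0.7, 0.69 and 0.83 TPM in polyclonal cells and at 0.25, 0.24, 0.38 and 0.27 TPM in WT5. Subclone 4 held 0.17, 0.28, 0.25 and 0.27 TPM, and subclone 5 held 0.06, 0.26, 0.15 and 0.13 TPM. Subclone 2 held 0.07, 0.05, 0.03 and 0.06 TPM, subclone 3 held 0.02, 0.03, 0.06 and 0.05 TPM, and subclone 1 held 0.03, 0.02, 0.03 and 0.02 TPM. Subclones 4 and 5 overlapped WT5, and subclones 1, 2 and 3 lay below it, subclone 1 by 11.4-fold on means. Every neighbour in the order of the subclones overlapped, and its range of 1.03 in z-score was the closest to the threshold of those called. That call was lost without replicate 2 or replicate 4 of subclone 1. All of these levels were below 1 TPM, and 13.5% of the 50-base stretches of its longest transcript occur in 1 other annotated gene.

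Lingo3 (ENSMUSG00000051067, chromosome 10 at 80832801 to 80844039) encodes a transmembrane protein with leucine-rich repeats, of a family known from neurons. Polyclonal cells held 0, 0.02, 0 and 0 TPM and WT5 held 0.28, 0.43, 0.26 and 0.36 TPM. Subclone 4 held 0.69, 0.74, 0.47 and 0.61 TPM and subclone 2 held 0.26, 0.12, 0.19 and 0.12 TPM. Subclone 3 held 0.11, 0.03, 0.03 and 0.01 TPM, subclone 5 held 0.03, 0.01, 0.04 and 0.04 TPM, and subclone 1 held 0.02, 0.03, 0.05 and 0.01 TPM. As for Zfp503, subclone 4 was the highest line, here 1.89-fold above WT5, and subclones 1, 3 and 5 lay below WT5 in every library. Subclone 2, which was above WT5 for Zfp503, had a lower mean than WT5 here and overlapped it. Subclone 4 was 22.8-fold above subclone 1 on means, and subclones 3, 5 and 1 and polyclonal cells overlapped in turn.

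Fam84a (ENSMUSG00000020607, chromosome 12 at 14146830 to 14152054) encodes a protein with a domain of the lecithin retinol acyltransferase family, and little is known of its role. Polyclonal cells held 21.21, 20.17, 19.39 and 19.26 TPM and WT5 held 0.08, 0.12, 0.17 and 0.07 TPM. Subclone 4 held 2.69, 3.75, 3.06 and 3.22 TPM and subclone 5 held 0.84, 1.02, 1.06 and 1.09 TPM. Subclone 3 held 0.14, 0.21, 0.15 and 0.03 TPM, subclone 1 held 0.04, 0.03, 0.11 and 0.12 TPM, and subclone 2 held 0.03, 0.05, 0.08 and 0.02 TPM. Subclones 4 and 5 stood apart from WT5 and from each other, by 3.17-fold, and the remaining subclones overlapped WT5. Subclone 4 was 28.9-fold above WT5 and 70.7-fold above subclone 2 on means, and still 6.29-fold below polyclonal cells.

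Usp50 (ENSMUSG00000027364, chromosome 2 at 126709096 to 126783470) encodes a member of the ubiquitin-specific protease family thought to lack catalytic activity. It was at 75.57, 88.3, 94.01 and 72.17 TPM in polyclonal cells and at 2.05, 0.38, 2.81 and 1.82 TPM in WT5. Subclone 3 held 19.17, 22.32, 30.48 and 18.76 TPM, subclone 1 held 14.1, 25.42, 18.79 and 27.58 TPM, and subclone 2 held 18.46, 10.02, 22.62 and 25.17 TPM. Subclone 4 held 18.14, 17.84, 12.79 and 23.32 TPM and subclone 5 held 10.67, 14.52, 5.69 and 10.1 TPM. All subclones lay above every WT5 library and below every polyclonal library, and each subclone overlapped its neighbour in the order of levels. The range among the subclones was 0.38 in z-score, below the threshold of 1, with a ratio of 2.21 between the highest and the lowest mean. Usp50 was thus not called among the subclones, which does not show that its levels were equal there. The ratio of subclone 3 to WT5 was 12.9, a comparison in which clone and table cannot be told apart.

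The Usp50 value also needs its neighbours beside it. Of the 2080 stretches of 50 bases in its longest transcript 16.0% occur in other genes, 283 of them in Polr2l, a subunit of the RNA polymerases, so a short read from one can be assigned to the other. Polr2l was at 6.7 ± 0.774 TPM (SD, n = 4) in polyclonal cells and 35.6 ± 2.25 TPM in WT5. Its means in subclones 1 to 5 were 26.3, 27.2, 26.1, 28.2 and 23.1 TPM. Polyclonal cells thus had the most Usp50 and the least Polr2l and WT5 the reverse, lines that also differ in read type, while among the subclones subclone 5 had the lowest mean of both genes. Usp8, a protease gene that overlaps Usp50 on the opposite strand, had means of 26.2 TPM in polyclonal cells, 46.7 TPM in WT5 and 39.1 to 46.2 TPM in the subclones. Gm10774 holds 155 of the Usp50 stretches and was listed at 0 in every library. Gm13015 holds 11 of them, with 13.1 ± 3.51 TPM (SD, n = 4) in polyclonal cells and 0 in every library of WT5 and the subclones. The part of shared sequence or of read type in the Usp50 differences was not tested.

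**Figure D2:**
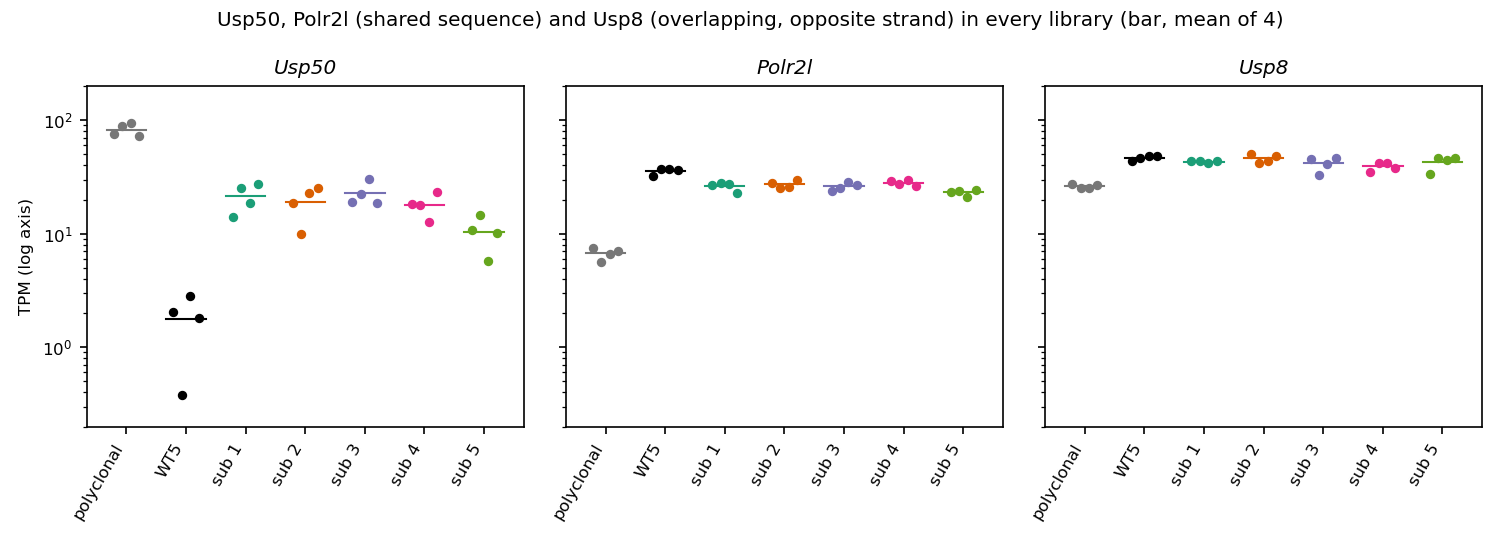
TPM (log axis) of Usp50, Polr2l and Usp8 in each library of the 7 lines, with circles for libraries and bars for means of 4. Polr2l has a mean of 6.7 TPM in polyclonal cells and 35.6 TPM in WT5, where Usp50 has means of 82.5 and 1.77 TPM.

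Across the lines, no subclone kept all 10 genes at the level of WT5, and none moved them all one way. Subclone 4 had 5 genes with every library above WT5, where 14% of all genes above 0 were, and 3 with every library below, where 22.6% were. Subclone 1 had 3 above and 5 below, beside 11.7% and 19.3% of all genes. Subclone 2 had 3 and 3, beside 10.5% and 18.5%. Subclone 3 had 3 and 4, beside 8.11% and 19.4%. Subclone 5 had 2 and 4, beside 7.66% and 20.5%. Usp50 was the gene above WT5 in every subclone and Foxb1 the gene below. By the call rule, 5 of the 10 genes were called in subclone 1, where 0.152% of all 13860 genes tested were called. The counts were 2 in subclone 2 beside 0.144% of all genes, 6 in subclone 3 beside 0.173%, 4 in subclone 4 beside 0.202% and 3 in subclone 5 beside 0.173%. These contrasts share the 4 WT5 libraries and chose the genes, so nothing is read from the counts. Zfp503 and Lingo3 were called in 3 subclones, Usp50 in 4, Fam84a, Nipal2 and Foxb1 in 2, and Prex1, Cdk14, Grb14 and Marcks in 1.

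**Figure D3:**
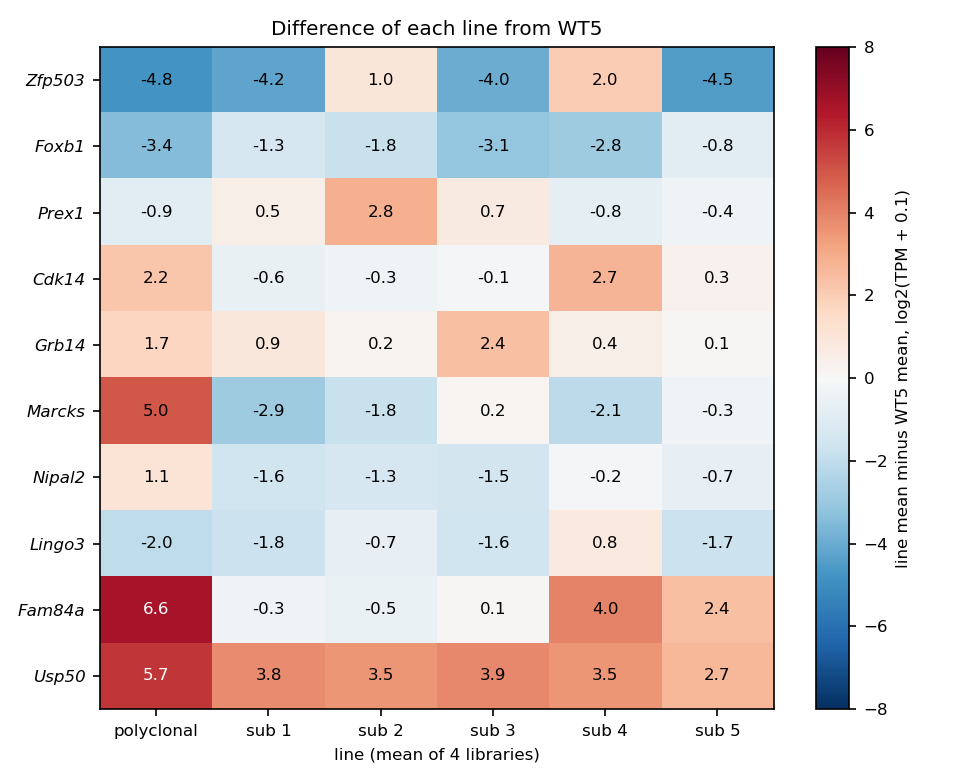
Mean log2(TPM + 0.1) of each line minus that of WT5 (columns, lines; rows, genes; red, above WT5; blue, below). Zfp503 runs from -4.5 in subclone 5 to 2.02 in subclone 4, and Usp50 is above WT5 in every column.

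Polyclonal cells, the population from which WT5 was sorted, held the 10 genes at levels far from those of WT5 in both directions. Fam84a was 182-fold higher in polyclonal cells on means, Usp50 46.7-fold, Marcks 32.5-fold, Grb14 11.4-fold, Cdk14 7.19-fold and Nipal2 2.55-fold. Zfp503, Prex1, Foxb1 and Lingo3 were each listed at 0 in at least 1 polyclonal library and were higher in WT5. The libraries of polyclonal cells and WT5 did not overlap for any of the 10 genes, which also held for 53.8% of the 23738 genes above 0 in any of these 8 libraries. Of the 6 genes that could be tested by the rule, which requires a TPM above 0 in all 8, 5 were called, all lower in WT5, beside 5.43% of 13723 genes. That requirement left out Zfp503, Prex1, Foxb1 and Lingo3, the genes higher in WT5, so it fixed the direction of these calls. The z-score differences, WT5 minus polyclonal, were -2.53 for Fam84a, -1.96 for Usp50, -1.7 for Marcks, -1.13 for Grb14, -1.04 for Cdk14 and -0.53 for Nipal2, which was not called. Since the WT5 libraries took part in choosing the genes, these counts are a description. Grb14 was not called without replicate 1 or 4 of polyclonal cells or without replicate 2, 3 or 4 of WT5. Cdk14 was not called without replicate 3 of WT5.

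Of the genes higher in polyclonal cells than in WT5, some had subclones with every library above WT5, namely subclones 4 and 5 for Fam84a, subclone 4 for Cdk14, subclones 1 and 3 for Grb14 and all subclones for Usp50. For Cdk14 and Grb14 the libraries of those subclones overlapped those of polyclonal cells, and for Fam84a and Usp50 they did not. For Zfp503, Prex1, Foxb1 and Lingo3, which polyclonal cells held at 0.07 TPM or less, the subclone with the lowest mean overlapped polyclonal cells. For Marcks no subclone library passed 2.23 TPM where polyclonal cells held at least 49.76 TPM.

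Pairs of the 10 genes ranged from alike to opposed. Over the 24 libraries of WT5 and the subclones, Pearson's r of log2(TPM + 0.1) between pairs ran from -0.73 to 0.89, with a median of -0.09 over 45 pairs. Only 2 pairs passed 0.8, namely Zfp503 with Lingo3 at 0.89 and Fam84a with Cdk14 at 0.88. The lowest were Foxb1 with Usp50 at -0.73 and Fam84a with Prex1 at -0.69. These points are 4 libraries of each of 6 lines, so an r mostly describes 6 line means and is given without a test. Within the 20 subclone libraries alone, 5 pairs passed 0.8. They were Fam84a with Cdk14 at 0.9, Zfp503 with Lingo3 at 0.89, Fam84a with Nipal2 at 0.89, Cdk14 with Nipal2 at 0.86 and Cdk14 with Lingo3 at 0.81, all of them genes with their highest mean in subclone 4. The lowest there was Fam84a with Prex1 at -0.77, and Foxb1 with Usp50 was at -0.48.

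**Figure D4:**
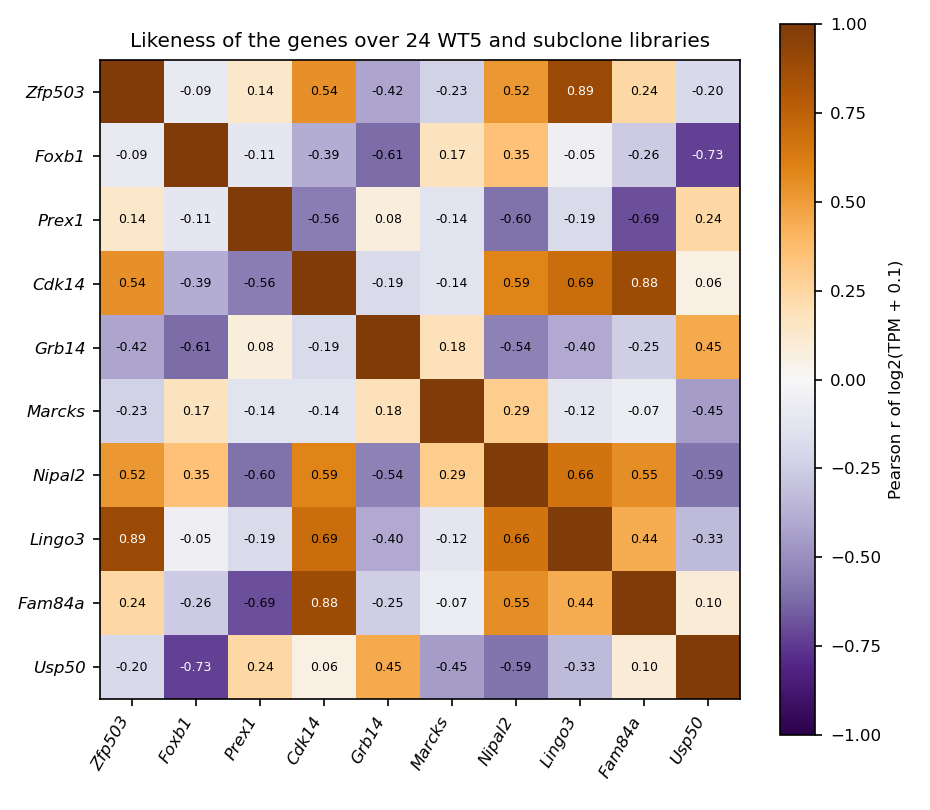
Pearson's r of log2(TPM + 0.1) between each pair of the 10 genes over 24 libraries, 4 each of WT5 and the 5 subclones (orange, positive; purple, negative). Zfp503 with Lingo3 has 0.89 and Fam84a with Cdk14 has 0.88, and the lowest is -0.73 for Foxb1 with Usp50.

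Genes most like each of the 10 were sought by the same r among 12134 genes with a mean of at least 1 TPM in the 24 libraries, and the leading 3 are named with no statement of shared control. Zfp503 was followed most closely by Zfp111, a zinc finger gene, at 0.946, D130058E05Rik at 0.945 and the Wnt receptor gene Fzd1 at 0.94. Lingo3 was followed by Fzd1 as well, at 0.957, then by Tmem30b at 0.935 and the efflux pump gene Abcg2 at 0.919. Fzd1 thus stood among the leading genes of both, with means of 11.9 TPM in subclone 4, 8.31 TPM in WT5 and 6.82 TPM in subclone 2, and of 3.54 to 4.06 TPM in the others. Zfp111 had a mean of 5 TPM in subclone 4 and of 0.0125 TPM in subclone 1, although polyclonal cells held 6.43 TPM of it. Fam84a was followed by the urea transporter gene Slc14a2 at 0.938, the peptide hormone gene Apela at 0.897 and Ugt8a at 0.892. Slc14a2 had means of 4.99 TPM in subclone 4 and 2.4 TPM in subclone 5 and at most 0.292 TPM in the other monoclonal lines. Cdk14 was followed by Rrad at 0.936, Phyhipl at 0.899 and the chemokine gene Cxcl1 at 0.893, and Cxcl1 had a mean of 117 TPM in subclone 4 and of 57.2 to 66.4 TPM in the other monoclonal lines.

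Prex1 had no gene above 0.9. Its nearest were the transcription factor gene Twist1 at 0.859, Gxylt2 at 0.843 and Hsd11b2 at 0.785, and Twist1 had a mean of 8.17 TPM in subclone 2 and of at most 1.28 TPM in WT5 and the other subclones. Marcks was closest to the growth factor gene Pdgfd at 0.954, then to Tbx15 at 0.88 and Pja1 at 0.852. Foxb1 was closest to Sept5 at 0.947, Igfbp2 at 0.946 and Elfn1 at 0.942. Igfbp2, which encodes a binding protein for insulin-like growth factors, had means of 9.97 TPM in WT5, 0.102 TPM in subclone 3 and 0.138 TPM in subclone 4, and these subclones also had the least Foxb1. Grb14 was followed by Slc16a12 at 0.902, Rragd at 0.887 and Pgm5 at 0.886. Nipal2 was followed by Trib3 at 0.931, Myl6b at 0.899 and Fkbp9 at 0.896. Usp50 was followed by Rbm43 at 0.894, Slc35g1 at 0.889 and BC030343 at 0.889, but within the 20 subclone libraries the values were 0.561, 0.608 and 0.48, so the likeness lies mostly in the step from WT5 to the subclones.

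Few relatives and partners of the 10 genes were called across the subclones. They make up lists of 77 genes in all, and 61 could be tested among the subclones, of which 1 was called by limma, beside 0.613% of all genes. Without the threshold on size, 34.4% of them had an adjusted p below 0.01, beside 24.6% of all genes, so many differed by a little. Their median range was 0.089 in z-score, beside 0.095 for all genes. The gene called was Prex2, the close relative of Prex1 that also activates Rac. Its means in subclones 1 to 5 were 0.0925, 0.367, 0.1, 0.05 and 0.23 TPM, with SDs of 0.0222, 0.116, 0.0356, 0.04 and 0.161 (n = 4 each), so it was highest in subclone 2 and lowest in subclone 4, as Prex1 was. The range was 1.05 in z-score with an adjusted p of 3.80e-04 by limma, at levels below 1 TPM, and the call was lost without replicate 2 of subclone 2, and without replicate 2 or replicate 4 of subclone 4. In these fits 0 of the 77 genes were called, and the unequal-variance test also called 0. None of the 61 genes tested was called in any subclone against WT5, by limma or by the unequal-variance test. There limma called 0.144% to 0.202% of all genes. An unadjusted p below 0.05 by limma was found for 29 to 34 of the 61 (47.5% to 55.7%), beside 46.2% to 59.0% of all genes.

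List by list, the partners of Prex1 alone held a call among the subclones. At the 0.613% of all genes called, a list of this size would mostly hold no call, so nothing is read from a count of 0 here, and 46.7% of all genes had an unadjusted p below 0.05. For Zfp503, 6 of 6 listed genes could be tested, namely its paralogue Zfp703 and the Groucho genes, and 0 were called by limma or by the unequal-variance test, with 3 at an unadjusted p below 0.05. For Cdk14, 8 of 9 were tested, among them cyclin Y and the Wnt co-receptors, and 0 were called, with 1 at an unadjusted p below 0.05. For Grb14 and the insulin receptor 0 of 6 were called, for Marcks and its kinases 0 of 7 and for Foxb1 0 of 12 other forkhead genes. At an unadjusted p below 0.05 were 5 of the 6, 4 of the 7 and 10 of the 12. For Fam84a 0 of 2 were called, for Nipal2 0 of 4, for Lingo3 0 of 3 and for Usp50 0 of 5, where the counts at an unadjusted p below 0.05 were 2, 2, 2 and 1.

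Between WT5 and polyclonal cells, 59 of the 77 partner genes could be tested and 3 were called by limma, all higher in WT5, a share near the 5.43% of all genes. Foxq1, a forkhead gene listed with Foxb1, had 0.128 ± 0.0602 TPM in polyclonal cells and 8.3 ± 0.289 TPM in WT5 (SD, n = 4), a z-score difference of 1.9 with an SE of 0.0966 and an adjusted p of 1.21e-06 by limma. Tle2, a Groucho co-repressor listed with Zfp503, had 0.23 ± 0.143 TPM and 4.05 ± 0.588 TPM, a difference of 1.34 with an SE of 0.173 and an adjusted p of 2.01e-04 by limma. Nipal1, a magnesium transporter gene listed with Nipal2, had 1.02 ± 0.247 TPM and 11.6 ± 1.44 TPM, a difference of 1.07 with an SE of 0.0586 and an adjusted p of 1.81e-06 by limma. Every WT5 library lay above every polyclonal library for these 3 genes, and Nipal1 thus differed in the opposite direction to Nipal2, which was lower in WT5. Nipal1 lost its call without replicate 2 of polyclonal cells. The requirement of a TPM above 0 in all 8 libraries left out Grb10, a relative of Grb14 with 0.0525 ± 0.0457 TPM in polyclonal cells and 19.6 ± 0.667 TPM in WT5, and Vav3, an exchange factor listed with Prex1, with 0.0425 ± 0.033 TPM and 2.65 ± 0.25 TPM. When a TPM above 0 in a single library sufficed, at a pseudocount of 0.1, limma called Foxq1, Tle2, Grb10 and Vav3 and not Nipal1.

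None of the genes beside the 10 on their chromosomes passed the call rule among the subclones. Of the 100 nearest tested genes, 5 on each side of each gene by lower coordinate, 0 were called among the subclones by limma and 0 by the unequal-variance test, beside 0.613% of all genes, so less than 1 call would stand in 100 genes at the share of all genes. At an unadjusted p below 0.05 were 46 of them, beside 46.7% of all genes. Without the threshold on size, 28 of the 100 passed an adjusted p below 0.01, beside 24.6% of all genes, and their median range was 0.094 beside 0.095. The distances between starts of transcription, taken by strand, ran from 11.2 kb beside Lingo3 to 3836.5 kb beside Grb14. Lingo3 had all 10 of its neighbours within 88.8 kb, and Fam84a had none nearer than 882.9 kb. Of 96 neighbours tested against WT5, 0 were called by limma or by the unequal-variance test in any subclone, beside 0.144% to 0.202% of all genes. At an unadjusted p below 0.05 by limma were 39 to 51 of them (40.6% to 53.1%), beside 46.2% to 59.0% of all genes.

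**Figure D5:**
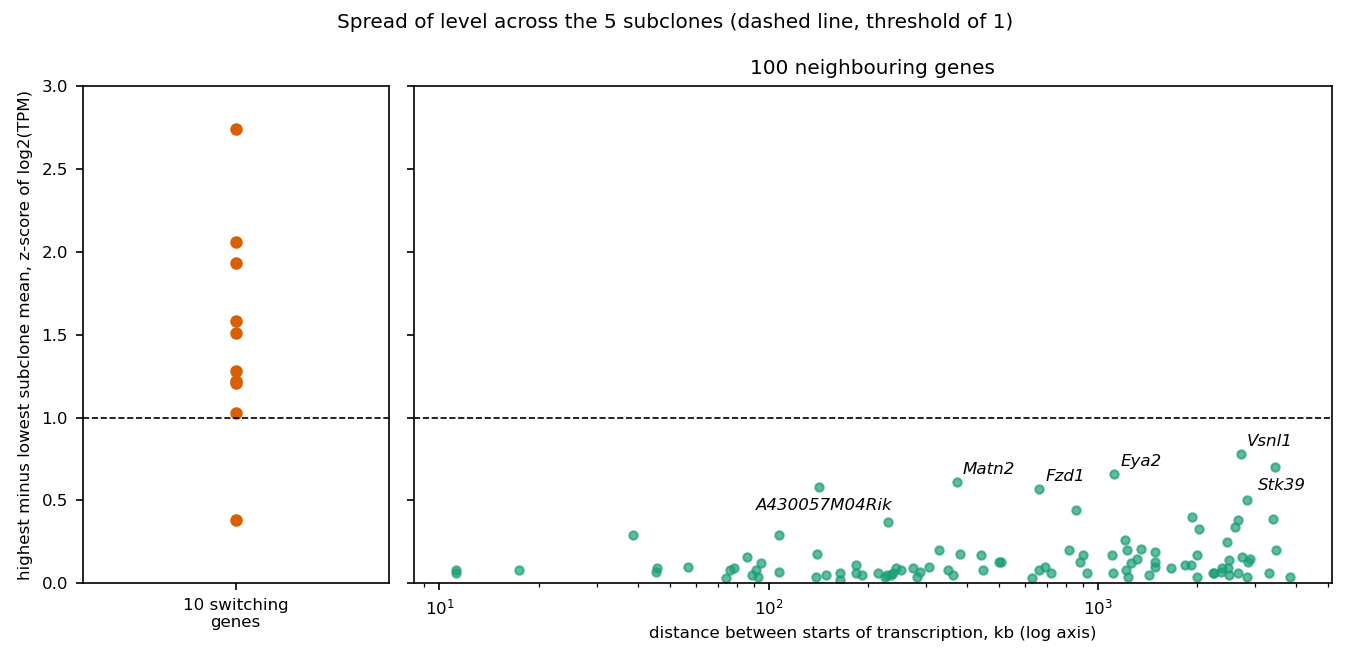
Range between the highest and the lowest subclone mean in z-score of log2(TPM), for the 10 genes (left) and for 100 neighbouring genes against the distance between starts of transcription in kb (right, log axis). The dashed line is the threshold of 1, which 9 of the 10 genes and 0 of the neighbours pass; the highest neighbour is Vsnl1 at 0.78.

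Smaller differences were found beside some of them, with or without the pattern of the nearby gene. Fzd1, which starts 662.3 kb from the start of Cdk14 and is named above for its likeness to Lingo3, had a range of 0.57 with an adjusted p of 2.00e-10 by limma. It was highest in subclone 4, as Cdk14 was, but its means of 3.97 TPM in subclone 1 and 6.82 TPM in subclone 2 lay apart, where Cdk14 was low in both. Vsnl1, a distant neighbour of Fam84a chosen after its values were seen, had a mean of 4.92 TPM in subclone 4 and of 0.932 to 1.59 TPM in the other subclones, with a range of 0.78 and an adjusted p of 2.44e-07 by limma. Fam84a was also above WT5 in subclone 5, where Vsnl1 had its lowest mean. Stk39, beside Grb14 and also chosen after its values were seen, had a range of 0.7 and an adjusted p of 5.42e-10 by limma. Its mean was highest in subclone 5 at 5.03 TPM, where Grb14 was lowest, 4.83 TPM in subclone 3, where Grb14 was highest, and lowest in subclone 2 at 1.17 TPM.

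The neighbourhood of Fam84a differed from the rest in how many of its genes moved a little. Of its 10 neighbours 8 had an adjusted p below 0.01 by limma, where 24.6% of all genes did, and 9 had their highest mean in subclone 4 and 7 their lowest in subclone 5. Over all genes tested, 30.9% were lowest in subclone 5 and 26.2% were highest in subclone 4. This reached across the chromosome, since 85.2% of the 472 tested genes of chromosome 12 were highest in subclone 4, beside 45.7% of 1008 on chromosome 5, which holds Cdk14, and 18.4% to 23.6% on the other chromosomes that hold these genes. Over 417 genes of chromosome 12 with a mean of at least 1 TPM, the median log2 difference of subclone 4 from the mean of the other subclones was 0.38, and 0.34 to 0.41 in its 4 libraries. In subclone 5 the median was -0.36, and -0.53 to -0.28 in its libraries, against a mean that includes subclone 4. On chromosome 5 subclone 4 had a median of 0.1. The part of these shifts in the levels of Fam84a and Cdk14 was not tested.

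Between WT5 and polyclonal cells 93 neighbours could be tested and 5 were called by limma, again a share near the 5.43% of all genes, and all were higher in WT5. They were Mycn and Trib2 beside Fam84a, Dpp4 beside Grb14, Rora beside Foxb1 and Lsm7 beside Lingo3. Mycn, which encodes a growth-promoting transcription factor, went from a mean of 0.34 TPM in polyclonal cells to 13 TPM in WT5, with a z-score difference of 1.62, an SE of 0.0277 and an adjusted p of 6.88e-09 by limma. Dpp4 went from 0.21 to 6.89 TPM, Rora from 0.535 to 7.51 TPM, Trib2 from 0.488 to 5.71 TPM and Lsm7 from 22.2 to 521 TPM. Fam84a and Grb14 were lower in WT5 while their called neighbours were higher, and Foxb1 and Lingo3 were higher along with theirs.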

How the data were processed

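RNA of 28 libraries, 4 of each of 7 lines of mIMCD-3 cells, was sequenced. The deposited values are TPM, which the authors made with STAR 2.7.3a, GRCm38 with Ensembl release 81, and RSEM 1.3.1, and which are scaled to the same total in each library. Depth is unknown. The table of WT5 and polyclonal cells and the table of the subclones were joined by gene identifier, with no scaling between them. log2(TPM) was z-scored within each library over genes above 0 in all libraries compared, and groups were compared with limma 3.58.1 in R 4.3.3 (two-sided, Benjamini-Hochberg adjustment over all genes). limma took the place of the unequal-variance test of the study, which was run as an alternative. A call needed an adjusted p below 0.01 and a z-score difference above 1. The fit was tested on simulated data. Other pseudocounts, filters, thresholds, a replicate block and the loss of each library were tried.

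The named genes were the 10 genes, called partners and neighbours, and the 3 genes most like each by Pearson's r. These genes and lists were chosen with earlier results of these data known. Promoters came from RefSeq (GRCm38.p6), with windows for Marcks, Nipal2 and Foxb1 not used here. Python 3.11.15, numpy 2.4.6, pandas 2.3.3 and matplotlib 3.10.9 were used. Same-numbered libraries of different subclones, or of a subclone and WT5, had correlations of their deviations from the line means of -0.31 to 0.14, so the numbers were not taken as pairs.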

Additional observations from a re-analysis of the deposited data

Results flagged for a closer look

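Of the 70 groups of 4 libraries, 6 held 1 library far from the other 3, beside about 1 in 20 that chance gives. The gap to the nearest library, as a share of the range of the group, was 1.0 for Lingo3 and 0.929 for Nipal2 in polyclonal cells, and 0.857 for Prex1 there. It was 0.875 for Prex1 in subclone 1, 0.842 for Foxb1 in subclone 5 and 0.833 for Grb14 in subclone 5. Of these groups, only that of Nipal2 and that of Foxb1 had a mean above 0.5 TPM, and for Foxb1 the low library was replicate 1 of subclone 5, named above as far from its line.

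For 3 genes, every library of one subclone lay above WT5 and every library of another below it. Zfp503 was above in subclone 4 and below in subclone 5, and their means differed by 6.52 in log2(TPM + 0.1). Prex1 was above in subclone 2 and below in subclone 4, 3.59 apart. Lingo3 was above in subclone 4 and below in subclone 1, 2.51 apart. The difference between the 2 opposite directions was not tested as such, and no p is given for it because the levels chose the genes.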

How the results depend on the processing

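The z-score differences between WT5 and polyclonal cells of the 6 genes tested there did not reverse in sign. Counts of calls and ranges between subclone means have no sign, so they could only stay or move. Calls of the 10 genes among the subclones moved with the handling of low values, and calls over all genes, partners and neighbours moved most with the threshold on size. Here "any library" means genes above 0 in any library together with a pseudocount of 0.1. Among the subclones, 9 of the 10 genes were called, and 5 with log2(TPM + 0.1), 1 with log2(TPM + 1), 1 with a mean of at least 1 TPM and 2 with any library. Zfp503 was called under each of these. Calls over all genes there were 86, and 51, 11 and 33 with pseudocounts of 0.1 and 1 and with any library. They were 757 with a log2 difference above 1 in place of the z-score and 3455 with no threshold on size. Between WT5 and polyclonal cells, 5 of the 10 were called, and 3 under both pseudocounts and the mean filter, and calls over all genes were 745 (317 higher in WT5, 428 lower). They were 3501 with the log2 threshold (2327 higher, 1174 lower), 8986 with none (4740 and 4246) and 1085 with any library (298 and 787). Most calls were thus lower in WT5 by the rule and with any library, but higher with the log2 threshold or with none. Calls of the 10 genes against WT5, summed over subclones, were 20, and 9 by the unequal-variance test, 11 and 4 with pseudocounts of 0.1 and 1, 8 with the mean filter and 3 with any library. Over all genes they were 117, and in the same order 64, 72, 40, 172 and 77, with 2505 at the log2 threshold and 18168 with none.

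The call of Prex2 was absent (0) by the unequal-variance test, both pseudocounts, the mean filter and any library, where partners called numbered 4 with the log2 threshold and 21 with none. Between WT5 and polyclonal cells partners called were 17 and 46 in those fits. Neighbours called among the subclones were 2 with the mean filter (Stk39 and Vsnl1), 5 with the log2 threshold and 28 with none. Between WT5 and polyclonal cells they were 3 with a pseudocount of 1 and with any library, 25 with the log2 threshold and 61 with none. With neighbours ordered by start of transcription, chosen after seeing the data, 97 of 100 were shared and calls stayed at 0 and 5.

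Without 1 library, the 10 genes had 8 to 9 calls among the subclones, 3 to 6 between WT5 and polyclonal cells and 17 to 20 against WT5. The 3 came without replicate 3 of WT5. Partners called were 0 to 1 and 3 to 4, neighbours 0 and 5, and calls over all genes 79 to 90 among the subclones and 108 to 122 against WT5. With the replicate number as a block, calls of the 10 genes were 9, 5 and 15, and calls over all genes 85, 737 and 89. Replicate numbers did not pair the libraries, with 6 of 60 correlations over 0.1.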

Other observations

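Chromosome 6, which holds none of the 10 genes, also stood out in subclone 4. Over its 570 genes with a mean of at least 1 TPM, the median log2 difference of subclone 4 from the mean of the other subclones was -0.37, and 27.7% of these genes lay above 0. On chromosome 12 the same subclone had 95.7% of 417 genes above 0, and subclone 5 had 3.84%. In subclones 1, 2, 3 and 5 the median of chromosome 6 was 0.12, 0.1, 0.07 and 0.05. Each of these is taken against a mean that includes subclone 4, whose low values raise it. These values were looked at after those of Fam84a and its neighbours were seen. DNA was not measured in these libraries. The study did examine chromosomes of monoclonal wild-type lines, WT5 among them, by multicolor fluorescence in situ hybridization. It reported polyploidy and no evidence of structural aberrations, and it describes no karyogram of the subclones.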
